A study of Homo sapiens with 6 samples.

Results

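The oxidative phosphorylation subunits are the nuclear-encoded proteins of the mitochondrial respiratory chain and of ATP synthase. Members were taken by platform gene symbol, from probe sets that carry 1 symbol, with assembly factors, pseudogenes and antisense genes left out. The rule found 77 genes of 19775, in 149 probe sets, and each gene was represented by its probe set with the highest mean signal. Complex I (NADH dehydrogenase) had 33 members, complex II (succinate dehydrogenase) 3, complex III (cytochrome bc1) 7, complex IV (cytochrome c oxidase) 17 and complex V (ATP synthase) 17. Of these 75 were bright enough to be tested (a mean of at least 5 log2 units), among 13506 genes, and the 2 that were not were the complex IV isoforms COX7A1 and COX8C.

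Complexes I and II take electrons from NADH and succinate and pass them through ubiquinone to complex III, and cytochrome c carries them on to complex IV, where oxygen is reduced. Complexes I, III and IV pump protons across the inner membrane, and ATP synthase lets them flow back to make ATP. Melanoma cells with mutant BRAF often rely on glycolysis, and mitochondrial respiration has been studied in them as a property that changes when BRAF is inhibited.

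The series measured mRNA on 6 Affymetrix U133 Plus 2.0 arrays in A375, a human melanoma line with an activated BRAF kinase. EIF4B, which encodes a cofactor of the translation initiation helicase, had been knocked out by CRISPR in all the cells, and lentivirus then delivered LacZ (KO/LacZ, called the knockout line) or wild-type eIF4B (KO/eIF4B, called the rescued line). Each of the 2 stable lines received the DMSO vehicle, 10 µM of the BRAF inhibitor vemurafenib for 6 h, or the same dose for 18 h, with 1 array per combination. Whether each line is 1 clone is not given in the labels, and parental A375 cells were not analysed here. Levels are log2 RMA intensities, a change of 1 unit is 2-fold, and levels of different probe sets cannot be set against each other. Changes come from an additive limma model of line and treatment over all 6 arrays, with Benjamini-Hochberg adjustment over the 13506 genes and a threshold of 0.05.

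The arrays had log2 medians of 5.196 to 5.221 and correlated with each other at 0.942 to 0.995. EIF4B, on its brightest probe set, read 8.40, 8.53 and 8.53 under vehicle, 6 h and 18 h in knockout cells and 10.07, 10.14 and 10.28 in rescued cells, lower in the knockout line in all 3 pairs of arrays, which checks the extra eIF4B transcript and not the loss of the protein. Of 9 melanoma markers measured, 8 were bright enough to be tested, SOX10 and AXL among them, while MLANA lay below 5 on every array. PMEL, TYR and S100A1 lay not far above that limit, with means of 5.68, 5.57 and 5.83. The summed melanoma markers ranged from 12.2 to 12.5 over the arrays, and AXL was the brightest of them on every array. Within the list MITF rose by 1.63 and S100A1 by 0.28 at 18 h, and NGFR fell by 0.93 (limma, Benjamini-Hochberg adjusted p = 0.00035, 0.023 and 0.00058). NGFR was also lower in knockout than in rescued cells, at -0.69 (adjusted p = 0.028 in limma), and the part of these markers in the subunit changes was not tested. The epithelial marker EPCAM and the leukocyte marker PTPRC stayed below 4 on every array. The vehicle arrays carry no time, so time in culture cannot be told apart from the drug. Separate cultures are not named in the labels, and p-values therefore measure only how far these arrays spread, which may be technical. In the additive model that spread is how far the lines disagree over the treatments. A real line difference in drug response would enter it too, and the 2 cannot be told apart.

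Promoter sequences were matched for 65 of the 77 members in RefSeq's table (GRCh38.p14), and the 250 bases before each start were searched on both strands. The following are the member with the largest 18 h change in each complex that has an entry, and the 2 members that fell at 18 h. They are shown because members that moved together, and the exceptions, can be compared base by base. Each is written 5′ to 3′ in the direction of the gene, and capitals mark matches to the 6 motifs described after them. NDUFA3 lies at chr19:54102605-54102854 (plus strand), SDHA at chr5:218070-218319 (plus), UQCRC2 at chr16:21953111-21953360 (plus) and COX5B at chr2:97645812-97646061 (plus). ATP5PD lies at chr17:75046970-75047219 (minus), NDUFAB1 at chr16:23596317-23596566 (minus) and NDUFV2 at chr18:9102449-9102698 (plus).
NDUFA3: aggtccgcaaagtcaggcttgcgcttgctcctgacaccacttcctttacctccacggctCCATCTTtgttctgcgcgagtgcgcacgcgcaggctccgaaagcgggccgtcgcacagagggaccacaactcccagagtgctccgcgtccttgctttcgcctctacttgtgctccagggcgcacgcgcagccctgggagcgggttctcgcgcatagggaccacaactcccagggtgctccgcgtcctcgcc
SDHA: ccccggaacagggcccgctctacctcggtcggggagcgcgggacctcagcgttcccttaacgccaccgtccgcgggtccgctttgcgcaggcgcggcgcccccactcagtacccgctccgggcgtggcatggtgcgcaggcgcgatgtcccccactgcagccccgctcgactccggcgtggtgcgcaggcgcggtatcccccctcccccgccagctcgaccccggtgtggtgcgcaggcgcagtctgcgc
UQCRC2: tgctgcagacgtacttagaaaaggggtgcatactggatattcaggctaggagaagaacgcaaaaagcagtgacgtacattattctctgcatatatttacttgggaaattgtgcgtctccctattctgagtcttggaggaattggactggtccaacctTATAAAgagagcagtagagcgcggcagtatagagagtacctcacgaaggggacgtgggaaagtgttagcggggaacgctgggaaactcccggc
COX5B: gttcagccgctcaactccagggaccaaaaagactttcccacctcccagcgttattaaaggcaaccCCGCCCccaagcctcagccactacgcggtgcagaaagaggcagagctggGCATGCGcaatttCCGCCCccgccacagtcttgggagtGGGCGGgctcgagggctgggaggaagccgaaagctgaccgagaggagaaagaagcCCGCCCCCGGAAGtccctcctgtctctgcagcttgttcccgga
ATP5PD: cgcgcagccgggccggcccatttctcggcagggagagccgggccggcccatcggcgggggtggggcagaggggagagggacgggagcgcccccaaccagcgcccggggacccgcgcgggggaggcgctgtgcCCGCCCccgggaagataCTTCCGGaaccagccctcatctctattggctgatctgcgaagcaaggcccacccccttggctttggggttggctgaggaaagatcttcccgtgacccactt
NDUFAB1: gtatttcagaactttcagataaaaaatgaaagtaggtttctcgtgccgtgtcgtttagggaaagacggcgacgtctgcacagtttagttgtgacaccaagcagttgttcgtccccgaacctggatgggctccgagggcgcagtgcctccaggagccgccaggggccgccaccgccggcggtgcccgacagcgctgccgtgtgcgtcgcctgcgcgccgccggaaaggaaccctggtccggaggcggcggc
NDUFV2: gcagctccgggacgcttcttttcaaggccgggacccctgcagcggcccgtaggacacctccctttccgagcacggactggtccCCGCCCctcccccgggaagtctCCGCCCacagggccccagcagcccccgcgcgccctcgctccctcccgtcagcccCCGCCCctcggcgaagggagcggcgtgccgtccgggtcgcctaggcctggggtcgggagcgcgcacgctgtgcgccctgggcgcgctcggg

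The motifs searched were GCATGCG for NRF1 and CCGGAAG for the ETS factors including GABP, both regulators of respiratory genes. The others were AAGATGG for YY1, AAGGTCA for the estrogen-related receptors, GGGCGG for SP1 and TATAAA for the TATA box. The ETS and YY1 motifs can overlap. COX5B held the NRF1 motif at -136 to -130 from the start, the ETS motif at -37 to -31 and 4 SP1 motifs. ATP5PD held 1 ETS and 1 SP1 motif, NDUFA3 1 YY1 motif, UQCRC2 1 TATA box at -93 to -88 and NDUFV2 3 SP1 motifs. SDHA and NDUFAB1 held none of the 6 motifs in this window, which says only that these letters were not found there.

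Over the 65 members with an entry, 11 held the NRF1 motif (16.9%), compared with 4.51% of 15843 protein-coding promoters of the same length. These were ATP5F1C, ATP5MC2, ATP5ME, ATP5PF, COX5B, COX6A1, NDUFA6, NDUFB4, NDUFS6, NDUFS7 and SDHD. The ETS motif was in 15 members (23.1%, against 11.8% of all), with ATP5PF, COX5B, COX6A1 and SDHD holding both. YY1 and estrogen-related receptor motifs were each in 4 members (6.15%, against 3.35% and 2.79%). SP1 was in 36 members (55.4%, against 56.0%) and the TATA box in 7 (10.8%, against 9.23%). The NRF1 motif was in 6 of 35 higher members (17.1%) and in 5 of 27 uncalled ones (18.5%). The ETS motif was in 9 of 35 (25.7%) and in 6 of 27 (22.2%). These shares are descriptions, and the differences were not tested.

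What 18 h of vemurafenib did to the subunits in both lines is considered first. Subunit mRNAs were mostly higher, by small amounts and in every complex. Of 75 tested, 39 rose and 2 fell, NDUFAB1 and NDUFV2. Over all genes tested 51.4% were called at 18 h, 28.1% higher and 23.3% lower, so the calls among members (54.7%) were about as frequent as elsewhere, but divided unequally between the directions. The median change of the members was 0.20, against 0.01 over all genes tested, and 71 of 75 members lay above 0, against 51.1% of all genes. No member reached 1.5-fold, and 15 of the rises were of at least 1.3-fold.

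Both 18 h arrays were above both vehicle arrays for 65 of the 75 members, while the same held for 37% of all genes. Both were below for 2 members, the same ones that fell, and for 34% of all genes. In these bulk samples fewer cells of a kind and less RNA per cell cannot be told apart. Whether changes of bright probe sets are compressed in these values was not tested, and 65 members had a mean of at least 10. Among the 1919 other genes that bright the median change was -0.05, with 24% higher and 33% lower, and among the 65 bright members it was 0.20, with 35 higher and 2 lower. Without either vehicle array 13 members remained called, and without the 18 h array of the rescued line 26 did. Over all genes the same fits called 31.9% and 34.3% without a vehicle array and 47% without that 18 h array. A variance prior with an intensity trend called 64, against 54.1% of all genes. A test against 0.2 log2 units called 14, against 31.1% of all genes.

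**Figure D1:**
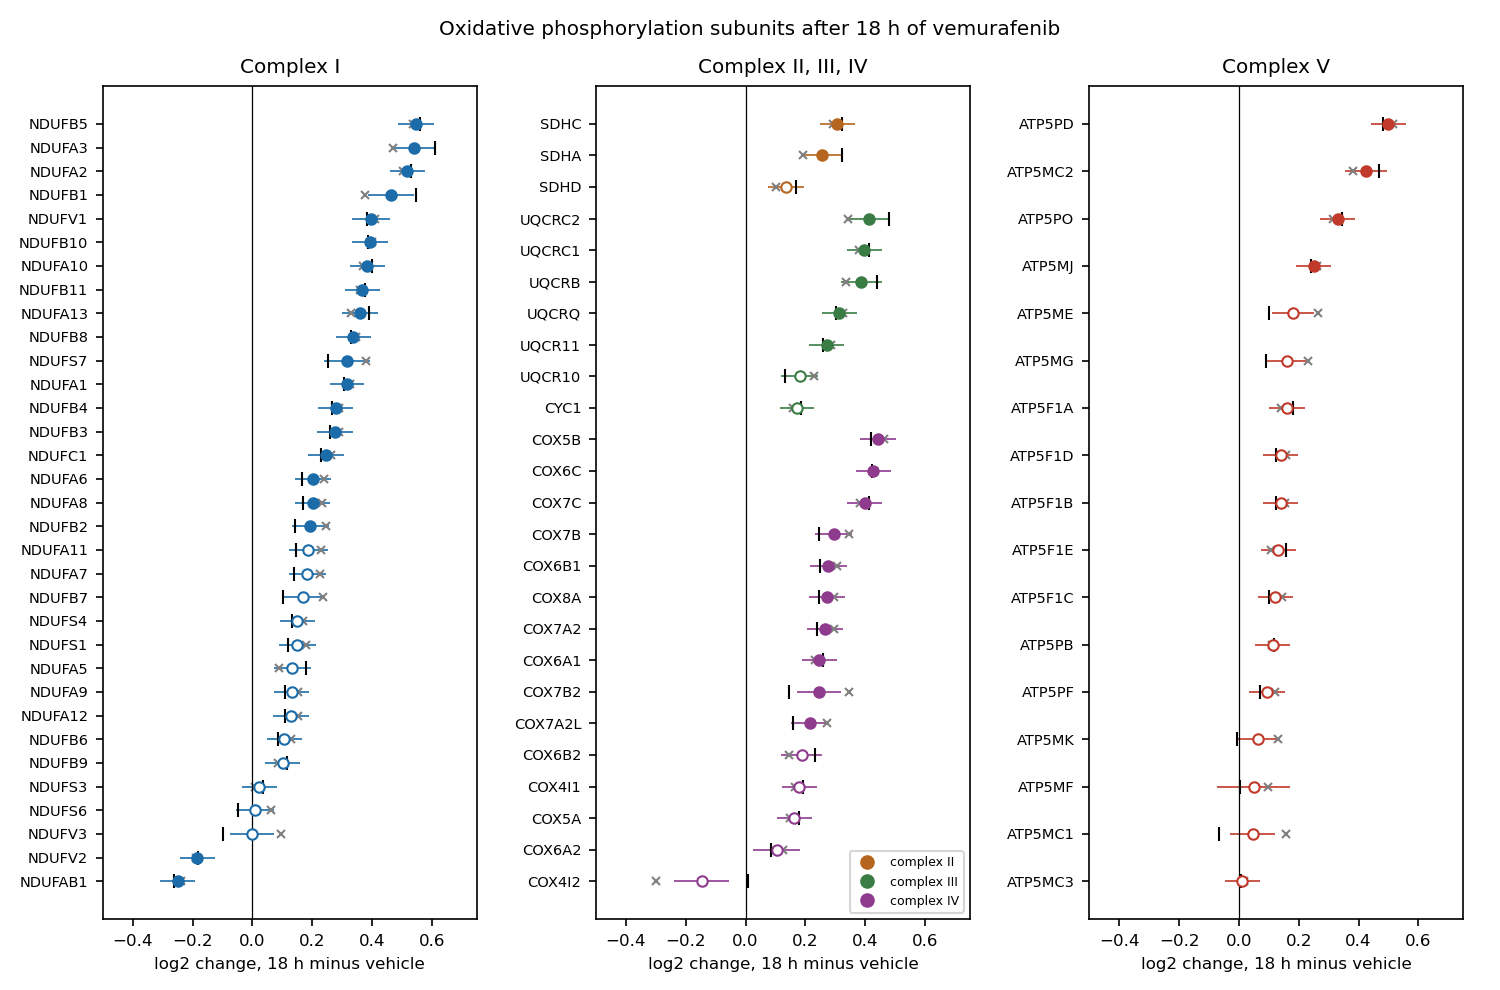
Log2 change of each tested subunit at 18 h against vehicle (x axis), with members as rows in 3 panels for complex I, complexes II to IV and complex V. Circles are the model's estimates with bars of 1 SE, filled where called; black ticks are the knockout line alone and grey crosses the rescued line alone. NDUFB5 is highest at 0.55 and NDUFAB1 lowest at -0.25, and most circles lie to the right of 0.

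In complex I, 18 of 33 members rose and 2 fell, with a median of 0.20. NDUFB5, an accessory subunit of the membrane arm, read 10.54, 10.76 and 11.10 under vehicle, 6 h and 18 h in knockout cells and 10.51, 10.80 and 11.05 in rescued cells. It rose by 0.55 (1.46-fold, SE 0.06 and adjusted p = 0.0015 in limma, Benjamini-Hochberg), with the order vehicle, 6 h, 18 h in each line and no overlap of the treatments. NDUFA3, another accessory subunit of the membrane arm, went from 10.57 through 10.74 to 11.18 in knockout cells and from 10.45 through 10.64 to 10.92 in rescued cells. Its change at 18 h was 0.54 (SE 0.07 and adjusted p = 0.0023 in limma, Benjamini-Hochberg), 0.61 in knockout cells and 0.47 in rescued cells. NDUFA2, an accessory subunit of the matrix arm with a thioredoxin-like fold, read 11.40, 11.61 and 11.93 and, in the rescued line, 11.29, 11.50 and 11.80. Its rise of 0.52 was 0.53 and 0.50 in the lines taken singly.

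The catalytic core of complex I, which holds the flavin and the iron-sulfur clusters, was divided. Of 5 core members tested 2 rose, NDUFV1, which binds NADH and flavin, by 0.40 and NDUFS7, which carries the last iron-sulfur cluster before ubiquinone, by 0.32. NDUFV2, the iron-sulfur partner of NDUFV1, fell by 0.18. Its levels were 10.98, 10.96 and 10.80 in knockout cells and 10.91, 10.86 and 10.72 in rescued cells, so both 18 h arrays were the lowest. The fall was near the threshold (SE 0.06 and adjusted p = 0.047 in limma, Benjamini-Hochberg), and it was past it in 3 of 8 other settings and in 0 of 6 fits that left out 1 array. NDUFS1 and NDUFS3 changed by 0.15 and 0.02 and were not called.

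NDUFAB1, the mitochondrial acyl carrier protein, sits in complex I and also serves fatty acid and lipoic acid synthesis. It read 12.87, 12.80 and 12.61 in knockout cells and 12.84, 12.83 and 12.61 in rescued cells. The fall of 0.25 was the largest of any member (SE 0.06 and adjusted p = 0.018 in limma, Benjamini-Hochberg). It was past the threshold in 7 of 8 other settings and in 2 of 6 fits that left out 1 array.

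The accessory subunits account for the remaining rises in complex I. Among the NDUFB subunits, which belong to the membrane arm, 8 of 11 rose and none fell, with a median of 0.28. NDUFB1 rose by 0.46 and NDUFB10 by 0.39, and the smallest called change, that of NDUFB2, was 0.19. NDUFB2 read 11.97, 11.97 and 12.12 in knockout cells and 11.89, 11.98 and 12.14 in rescued cells, and its adjusted p was 0.0498 in limma with Benjamini-Hochberg adjustment. NDUFB6, NDUFB7 and NDUFB9 changed by 0.11, 0.17 and 0.10 and were not called. Among the 12 NDUFA subunits other than NDUFAB1, 7 rose and none fell, NDUFA10 by 0.38 and NDUFA13 by 0.36 among them. NDUFA10 depended on its probe set: the mean of all its probe sets changed by -0.02, and a second, dimmer one bright enough to be tested by -0.03. NDUFC1 rose by 0.25, and NDUFS6 and NDUFV3 differed from vehicle by less than 0.05.

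**Figure D2:**
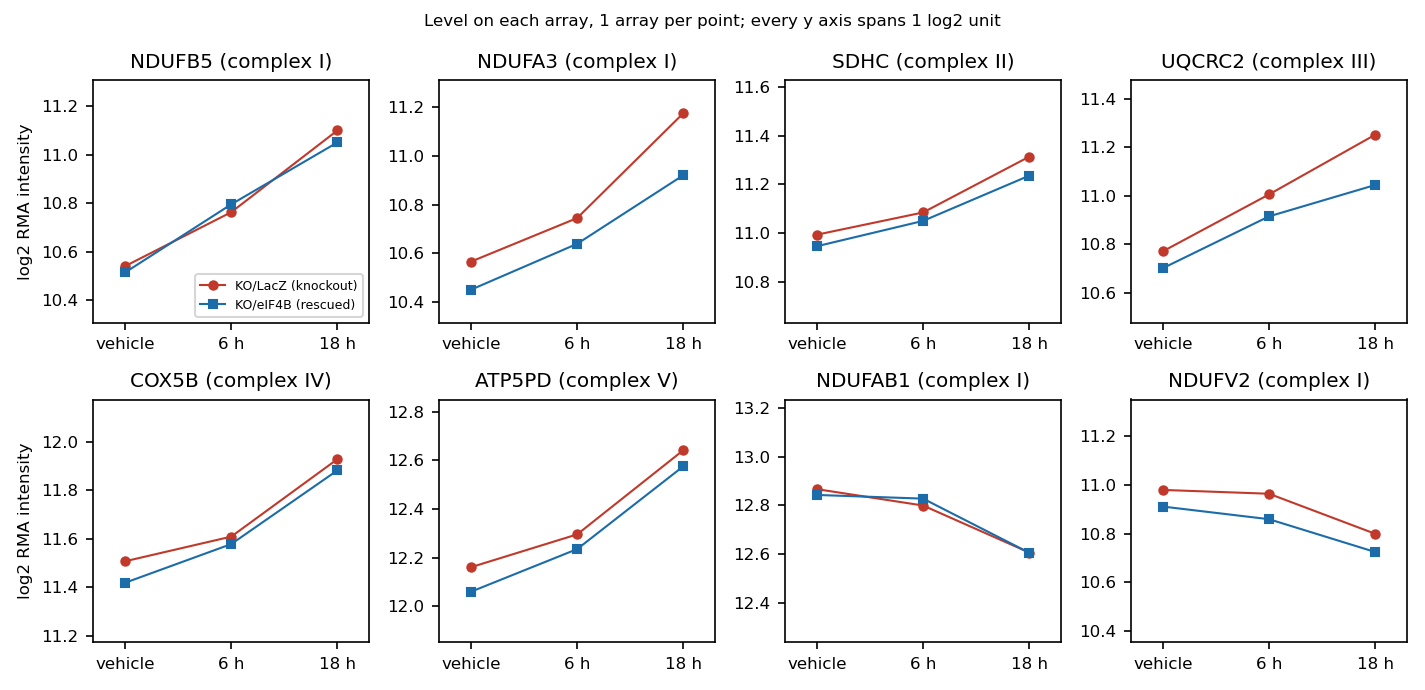
Log2 RMA intensity (y axis, each spanning 1 log2 unit) under vehicle and after 6 h and 18 h of vemurafenib for 8 subunits, with 1 array per point. Red circles are the knockout line and blue squares the rescued line. NDUFB5 climbs from 10.54 to 11.10 in the knockout line, and NDUFAB1 and NDUFV2 are lowest at 18 h in both lines.

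Complex II is both a respiratory complex and an enzyme of the TCA cycle, and 2 of its 3 members rose. SDHA, the flavoprotein that oxidises succinate, read 9.62, 9.73 and 9.94 under vehicle, 6 h and 18 h in knockout cells and 9.51, 9.62 and 9.70 in rescued cells. Its rise was 0.26 (SE 0.07 and adjusted p = 0.025 in limma, Benjamini-Hochberg), with both 18 h arrays above both vehicle arrays. SDHC, which anchors the enzyme in the membrane and binds ubiquinone, read 10.99, 11.08 and 11.31, and 10.95, 11.05 and 11.24 in the rescued line. It rose by 0.31 (SE 0.06 and adjusted p = 0.0091 in limma, Benjamini-Hochberg). Its 6 tested probe sets were all higher at 18 h, by 0.26 to 0.80. SDHD, the other membrane anchor, read 11.00, 11.21 and 11.17, and 10.96, 11.09 and 11.07 in the rescued line, so that it was no higher at 18 h than at 6 h. Its change of 0.13 was not called (limma, Benjamini-Hochberg adjusted p = 0.123).

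In complex III 5 of 7 members rose, with a median of 0.31. UQCRC2, a core protein of the matrix side, read 10.77, 11.01 and 11.25 in knockout cells and 10.70, 10.92 and 11.04 in rescued cells, a change of 0.41 (SE 0.07 and adjusted p = 0.0051 in limma, Benjamini-Hochberg). UQCRC1, the other core protein, read 10.41, 10.62 and 10.83, and 10.51, 10.71 and 10.89 in the rescued line. It rose by 0.40. UQCRB, a small subunit near the ubiquinone site, read 12.06, 12.10 and 12.50, and 12.01, 12.13 and 12.35 in the rescued line. Its rise of 0.39 came mostly after 6 h, and its 3 tested probe sets gave 0.39 to 0.41. The small subunits UQCRQ and UQCR11 rose by 0.31 and 0.27. UQCRQ read 12.53, 12.62 and 12.83, and 12.49, 12.57 and 12.81 in the rescued line. UQCR11 read 11.34, 11.42 and 11.60, and 11.22, 11.34 and 11.50 in the rescued line, and the 18 h arrays of both genes were the highest. CYC1, the cytochrome c1 heme protein, and UQCR10 changed by 0.17 and 0.18 and missed the threshold (limma, Benjamini-Hochberg adjusted p = 0.057 and 0.061).

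In complex IV 10 of 15 tested members rose and none fell, with a median of 0.25. COX5B, which binds zinc on the matrix side, read 11.51, 11.61 and 11.93 in knockout cells and 11.42, 11.58 and 11.88 in rescued cells. It rose by 0.44 (1.36-fold, SE 0.06 and adjusted p = 0.0028 in limma, Benjamini-Hochberg). COX6C read 12.04, 12.10 and 12.46, and 11.97, 12.07 and 12.40 in the rescued line, a rise of 0.43. COX7C read 12.67, 12.81 and 13.08, and 12.60, 12.71 and 12.99 in the rescued line, a rise of 0.40. All 3 are small structural subunits, and each had its highest arrays at 18 h. COX7A2L, which takes part in joining complexes III and IV, read 10.85, 10.87 and 11.01, and 10.91, 11.01 and 11.19 in the rescued line, and its change of 0.22 was the smallest called in complex IV.

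Complex IV has isoforms made in most tissues and others known mainly from heart, muscle, lung or testis. Of the general isoforms 8 of 10 rose, and of 4 tested tissue isoforms 1, COX7B2, rose. COX7B2, known from testis, lay well above the limit of 5, at 9.14, 9.18 and 9.28 in knockout cells and 9.15, 9.28 and 9.49 in rescued cells, and rose by 0.25 (SE 0.07 and adjusted p = 0.038 in limma, Benjamini-Hochberg). Its general partner COX7B read 12.33, 12.35 and 12.57, and 12.24, 12.34 and 12.58 in the rescued line, and rose by 0.29.

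The other tissue isoforms read 6.32 or less on every array. COX6A2, the heart and muscle isoform, lay between 5.04 and 5.40, while COX6A1 read 12.61, 12.68 and 12.87 in knockout cells and 12.53, 12.56 and 12.76 in rescued cells and rose by 0.25. COX6B2 lay between 5.09 and 5.32, and COX6B1 read 11.85, 11.88 and 12.10, and 11.68, 11.82 and 11.99 in the rescued line, a rise of 0.28. COX4I2, induced by low oxygen in lung, read 6.05, 6.20 and 6.06, and 6.22, 6.32 and 5.92 in the rescued line, with no call. COX4I1 read 12.42, 12.45 and 12.61, and 12.30, 12.36 and 12.47 in the rescued line, and its change of 0.18 missed the threshold (limma, Benjamini-Hochberg adjusted p = 0.053). COX7A1, the muscle isoform, lay between 4.07 and 4.41 and COX8C between 2.09 and 2.23, and neither was tested. Their general partners rose: COX7A2 read 12.16, 12.22 and 12.39, and 12.11, 12.22 and 12.41 in the rescued line, and COX8A read 12.46, 12.51 and 12.71, and 12.40, 12.52 and 12.70, with a change of 0.27 each.

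Complex V had the lowest share of calls of the 5 complexes, with 4 of 17 members higher and a median of 0.14, though all 17 estimates lay above 0. That count is read against the 28.1% of all genes that were called higher, and is near it. ATP5PD, a subunit of the peripheral stalk that holds the catalytic head still, read 12.16, 12.30 and 12.64 in knockout cells and 12.06, 12.23 and 12.58 in rescued cells. It rose by 0.50 (1.41-fold, SE 0.06 and adjusted p = 0.0018 in limma, Benjamini-Hochberg). ATP5PO, which couples the stalk to the head, read 11.83, 12.02 and 12.18, and 11.84, 11.98 and 12.16 in the rescued line, a rise of 0.33. The other stalk members, ATP5PB and ATP5PF, changed by 0.11 and 0.09 and were not called.

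The 3 genes of the c ring, which rotates as protons pass, encode the same mature protein. ATP5MC2 read 11.94, 12.02 and 12.41 in knockout cells and 11.93, 12.08 and 12.31 in rescued cells and rose by 0.42 (SE 0.07 and adjusted p = 0.0052 in limma, Benjamini-Hochberg). ATP5MC1 and ATP5MC3 changed by 0.05 and 0.01 and were not called, and the difference between the genes was not tested. The 5 subunits of the catalytic F1 head, ATP5F1A to ATP5F1E, had changes of 0.12 to 0.16, with 0 called in limma and 1 at an unadjusted p under 0.05. Over all genes 6947 of 13506 were called, and 7775 had an unadjusted p under 0.05 in limma. Among the membrane and dimer subunits ATP5MJ rose by 0.25, from 11.68 and 11.63 under vehicle through 11.77 and 11.75 at 6 h to 11.92 and 11.89 at 18 h in the knockout and rescued lines. The remaining 4 were not called, and ATP5MF, also on a probe set with several symbols, was read here from a dim one with a mean of 5.11. Differences between complexes were not tested.

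**Figure D3:**
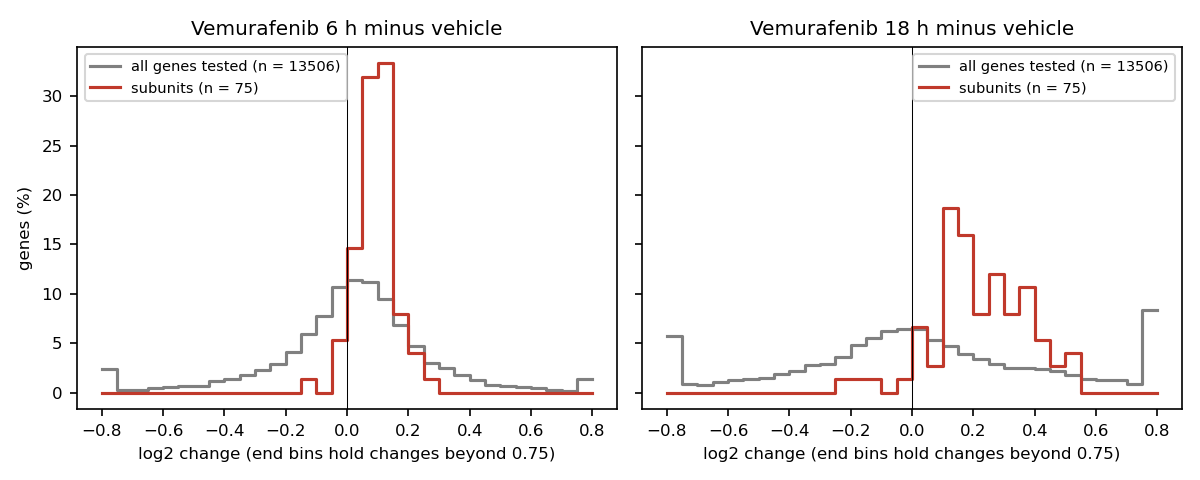
Share of genes (y axis, percent) by log2 change (x axis, bins of 0.05 with end bins holding changes beyond 0.75) at 6 h and at 18 h against vehicle, for all 13506 genes tested (grey) and the 75 subunits (red). The subunits lie in a narrow range right of 0, with medians of 0.10 at 6 h and 0.20 at 18 h.

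Several members have more than 1 probe set, and these did not always move alike. Of 126 member probe sets tested singly, 57 were higher at 18 h and 3 lower, with adjustment over all probe sets, against 25.3% and 24.5% of all probe sets tested. Of 33 genes with several tested probe sets, 20 had all of them on the same side of 0. COX5B had all 4 above 0, from 0.25 to 0.49. A dim COX4I1 probe set fell by 0.45 and a dim COX5A probe set fell by 0.44, while those that represent these genes, at means of 12.4, changed by 0.18 and 0.16. Averaging all probe sets of a gene lowered the 18 h change of UQCR11 to 0.03, of ATP5MJ to 0.08, of NDUFS7 to 0.10, of COX6A1 to 0.14, of ATP5PO to 0.15 and of NDUFV1 to 0.18, and ended each of these calls. NDUFA2 and ATP5MC2, at 0.18 and 0.19 by that measure, remained called. The transcript region behind each probe set was not analysed here.

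At 6 h the same comparison gave mostly small positive values and no call of a member gene. Of 75 members 0 were called in limma with Benjamini-Hochberg adjustment, against 16.2% of all genes, 7.34% higher and 8.82% lower. At an unadjusted p under 0.05 in limma there were 9 members, all of them above 0, against 4420 of 13506 genes. The median change was 0.10, against 0.03 over all genes, and 70 of 75 members lay above 0, against 56.6% of all genes. NDUFB5 came nearest at 0.25 (SE 0.06, adjusted p = 0.0505 in limma), and NDUFA2, UQCRC1 and UQCRC2 followed by adjusted p, at 0.20, 0.20 and 0.22. By complex the medians were 0.11 for I and II, 0.10 for III, 0.08 for IV and 0.07 for V. Both 6 h arrays lay above both vehicle arrays for 45 members and below for 1, NDUFAB1, against 31.8% and 24.2% of all genes. The count depends on the variance prior: with an intensity trend 14 members were called, all higher, against 22.9% of all genes in either direction. Among member probe sets tested singly, a dimmer one of NDUFA6 was called higher, at 0.35 (limma, Benjamini-Hochberg adjusted p = 0.0235 over all probe sets). The probe set that represents NDUFA6 changed by 0.12.

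The values at 6 h and 18 h share the vehicle arrays, so 18 h was also set against 6 h. Here 20 of 75 members were called, 19 higher and NDUFAB1 lower, against 34% of all genes, 19% higher and 14.9% lower. The median change was 0.15, against 0.00 over all genes. NDUFA3 (0.36), NDUFB1 (0.34), ATP5PD (0.34) and COX6C (0.34) changed most between the times, and NDUFAB1 fell by 0.21. Called members were 11 of complex I, 1 of II, 2 of III, 4 of IV and 2 of V. Both 18 h arrays lay above both 6 h arrays for 47 members and below for 4, NDUFAB1, NDUFV2, NDUFV3 and COX4I2, against 32.4% and 30.5% of all genes. SDHD, NDUFA5, NDUFA9 and NDUFS4 are among the members whose 18 h value lay within 0.04 log2 units of the 6 h value. The count was lower in every fit that left out 1 array. Without either 6 h array 0 members were called, and without the 18 h array of the knockout line 2 were. Without either vehicle array 6 were called, and without the 18 h array of the rescued line 10 were. Over all genes 10.6% were called without the 6 h array of the knockout line and 20.8% without that of the rescued line. The share was 17.5% without the knockout line's 18 h array, 25.9% without either vehicle array and 31.5% without the rescued line's 18 h array. With line left out of the model 7 were called, without the filter on dim genes 12, with the intensity trend 40, and 0 when tested against 0.2 log2 units. Over all genes these 4 settings called 20.2%, 18.8%, 39.2% and 13.3%.

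The next question was whether the lines with and without eIF4B differed in these genes. Of 75 members 0 were called in limma with Benjamini-Hochberg adjustment, against 2.5% of all genes (1.44% higher and 1.06% lower in the knockout line). At an unadjusted p under 0.05 in limma there were 7 members, against 3101 of 13506 genes. The median difference of the members, knockout minus rescued, was 0.03, against 0.00 over all genes tested. The difference was above 0 for 53 of 75 members (70.7%), against 51.5% of all genes. The largest was that of NDUFB4, an accessory subunit of the membrane arm, which read 11.28, 11.35 and 11.55 in knockout cells and 11.50, 11.60 and 11.79 in rescued cells. It was lower in the knockout line in all 3 pairs of arrays, with a mean difference of -0.23 (SE 0.05), and missed the threshold (limma, Benjamini-Hochberg adjusted p = 0.079). NDUFV1 differed the other way, at 10.98, 11.10 and 11.37 against 10.73, 10.97 and 11.14, by 0.20 on average (SE 0.05 and adjusted p = 0.115 in limma, Benjamini-Hochberg). In all, 35 of 75 members were higher and 11 lower in the knockout line in every pair, against 25.9% and 21.2% of all genes. This lean to the higher side was not tested. The arrays of the lines did not overlap for NDUFS3, which was higher in the knockout line, and COX6A2, which was lower, against 4.31% and 4.09% of all genes. With an intensity trend in the prior 6 members were called, 5 higher and 1 lower in the knockout line, against 8.66% of all genes in either direction. Among member probe sets tested singly, a dimmer one of ATP5F1E and a dimmer one of ATP5MG were called higher in the knockout line. They differed by 0.38 and 0.35 (limma, Benjamini-Hochberg adjusted p = 0.0491 and 0.0495 over all probe sets). The probe sets that represent these genes differed by 0.04 and -0.02.

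The response to vemurafenib was then compared between the lines. A term for a difference in drug response shared by both times was called for 0 of 75 members and for 0 of 13506 genes in limma. The term reached an unadjusted p under 0.05 in limma for 0 members, against 302 of 13506 genes. It had a median SE of 0.14 for the members, set against a median 18 h change of 0.20, so a difference as large as the changes themselves could have been missed. Its member median was -0.03, with a range from -0.18 for NDUFS7 to 0.18 for COX4I2. At 18 h the median change was 0.18 in the knockout line, with 69 of 75 members above 0, and 0.24 in the rescued line, with 72 of 75 above 0. At a single time the difference has no test. For 29 members the 18 h change was larger in the knockout line and for 46 in the rescued line. ATP5MC1 had the most negative difference, with changes of -0.07 and 0.16, and COX4I2 the most positive, with 0.01 and -0.30. These 2, NDUFS6, NDUFV3 and ATP5MK were the 5 members whose change differed in sign between the lines.

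The rest of the respiratory pathway was examined in 6 lists. Regulators of mitochondrial genes were lower, with 10 of 13 tested members called at 18 h and all 10 lower, against 23.3% of all genes. The change was -3.29 for the growth regulator MYC, -1.77 for the coactivator PPARGC1B, -1.11 for GABPB1, a subunit of the ETS factor GABP, and -1.11 for TFB1M, which modifies mitochondrial ribosomal RNA. TFAM, which packages mitochondrial DNA, changed by -0.61 and the transcription factor NRF1 by -0.58. At 6 h 7 of the 13 had fallen, against 8.82% of all genes, TFB1M by 0.77. PPARGC1A was too dim to be tested.

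Assembly factors, which build the complexes but do not stay in them, went both ways, with 12 of 49 higher and 12 lower at 18 h and a median of 0.05, both shares near those of all genes (28.1% and 23.3%). SURF1, needed for complex IV, rose by 0.99 and COA5 by 0.65. The change was -1.26 for NDUFAF4, needed for complex I, and -0.86 for COA7, and both fell. Cytochrome c, electron transfer flavoproteins and ubiquinone synthesis had 7 of 17 higher and 4 lower, against the same 28.1% and 23.3%. The ubiquinone synthesis genes COQ5 and COQ8B rose by 0.76 and 0.61, PDSS1, which makes the ubiquinone tail, fell by 0.74, and CYCS, cytochrome c itself, fell by 0.50.

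TCA cycle and pyruvate dehydrogenase genes had 10 of 17 higher and 4 lower, with a median of 0.22, and the share lower was near the 23.3% of all genes. IDH2, mitochondrial isocitrate dehydrogenase, rose by 0.78 and PC, pyruvate carboxylase, by 0.40, while DLAT and PDHX of the pyruvate dehydrogenase complex were lower, at -0.48 and -0.43. Of 7 carriers, channels and the ATPase inhibitor, ATP5IF1, the inhibitor of ATP synthase, rose by 0.42 and the outer membrane channel VDAC1 fell by 0.21. Of 4 uncoupling proteins and supercomplex factors UCP2 rose by 0.87 and HIGD2A by 0.39. Between the lines the assembly factor NDUFAF3 was lower in the knockout line, at -0.45, and SUCLA2, a subunit of succinyl-CoA synthetase, higher, at 0.54 (limma, Benjamini-Hochberg adjusted p = 0.034 and 0.028). These lists were chosen with results of the data known, and no list was tested as a set. COXFA4, a complex IV subunit once named NDUFA4 and outside the symbols used here, rose by 0.33 at 18 h.

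**Figure D4:**
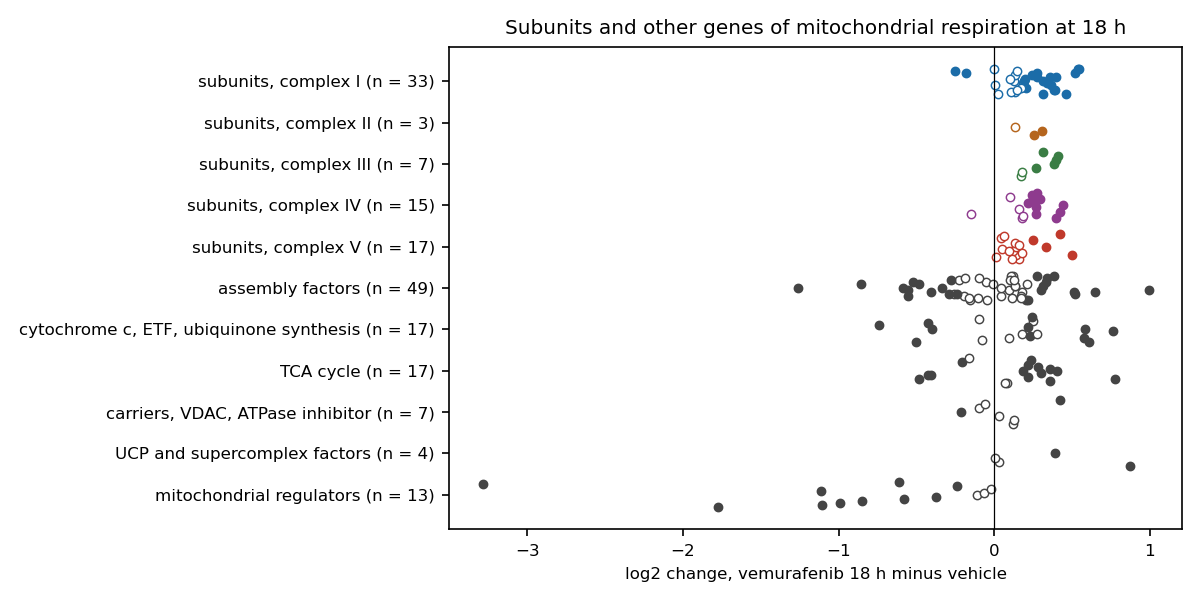
Log2 change at 18 h against vehicle (x axis) for each tested gene, in rows for the subunits of each complex and for the 6 lists of other respiratory genes; filled points were called. The subunits lie between -0.25 and 0.55, while assembly factors span -1.26 to 0.99 and the regulators reach -3.29.

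Some markers of other cell types moved with treatment time. The summed epithelial markers rose from 9.10 and 9.47 under vehicle to 10.3 and 10.9 at 18 h, mostly through KRT14. EPCAM, CDH1 and KRT19 lay below 5 on every array, and KRT5 changed by -0.01 at 18 h and was not called. The summed fibroblast markers went from 8.88 and 9.19 to 10.0 and 10.4, through LUM and DCN, with PDGFRA below 5. COL1A1 and THY1 changed by 0.02 and -0.09 at 18 h and were not called. Blood markers lay between 10.9 and 11.2, mostly from CD74, and muscle markers between 6.50 and 7.06. Among the blood markers LYZ and CD74 were lower at 18 h, at -0.86 and -0.19 (limma, Benjamini-Hochberg adjusted p = 0.0013 and 0.046). ACTN2, the only muscle marker tested, was also lower, at -0.45 (limma, Benjamini-Hochberg adjusted p = 0.0051). Of these 4 lists 10 of 19 genes in the table were bright enough to be tested. Their part in the subunit changes was not tested. Signs of RNA quality were alike over the arrays, the log2 difference of 3′ and 5′ control probe sets being -0.01 to 0.04 for GAPDH and 0.13 to 0.18 for ACTB.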

How the data were processed

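The authors deposited linear intensities for 6 arrays. RMA and affy are named, per the submitters' processing notes; their versions are not given in the sources used here. Quantile normalization within RMA hides any change of total mRNA. The deposited intensities were turned into log2 values, which the design had assumed. Each of 19775 genes with a single-symbol probe set was read from its brightest probe set by mean, and 13506 with a mean of at least 5 were tested (limma 3.58.1, R 4.3.3, lmFit, eBayes; residual degrees of freedom 2, prior 3.19; Benjamini-Hochberg threshold 0.05). The shared line-by-drug term had 1 residual degree of freedom plus 4.42. The number of arrays limits the precision. Groups come from the labels. The fit was tested on simulated data.

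Members, lists and motifs were chosen with earlier results of these data known. Values on all arrays were given for up to 3 members with the highest and 3 with the lowest called 18 h change per complex, succinate dehydrogenase genes and complex IV isoform pairs; up to 4 genes were named per list, and TFAM, NRF1, NDUFAF3, SUCLA2 and COXFA4, like examples beyond the rule, were chosen after their values were seen. Alternatives covered the filter, probe set summary, variance prior, normalization, tested size, model terms and each array left out. Probe sets with several symbols were not used, so NDUFC2, NDUFS5, NDUFS8, UQCRH and UQCRHL, found on such probe sets alone, were not analysed here. Promoters came from RefSeq (GRCh38.p14).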

Additional observations from a re-analysis of the deposited data

How the results depend on the processing

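The 18 h count of 41 members became 64 with an intensity trend in the variance prior and 14 in a test against 0.2 log2 units, and 13 to 35 when 1 array was left out. Under the other alternatives it stayed within 1.5 times of 41. At 6 h the count of 0 became 3 with a mean of at least 6, 2 with the mean of all probe sets, 14 with the intensity trend and 1 with arrays centred on bright genes outside the members, a setting chosen after seeing the data; it was 0 without any 1 array. The 18 h against 6 h count of 20 became 12 without a filter, 40 with the trend, 0 in the test against 0.2 and 7 with line left out, and 0 to 10 when 1 array was left out. Between the lines 0 became 6 with the trend and stayed 0 in every fit that left out 1 array. With the mean of all probe sets NDUFA10 changed sign, to -0.022 at 18 h and to -0.12 against 6 h; its other probe sets are dim. Of the 41 members called at 18 h, 11 were past the threshold in all 8 alternatives and all 6 fits that left out 1 array: ATP5MC2, ATP5PD, COX5B, COX6C, COX7C, NDUFA2, NDUFA3, NDUFB1, NDUFB5, NDUFB10 and UQCRC1. Arrays could not be paired by replicate, because the labels give no replicate numbers and there is 1 array per combination. The line term of the model sets each treated array against the vehicle array of its own line. The line-by-drug term could not be fitted with an array left out, for want of residual degrees of freedom. Over all genes the trend called 54.1% at 18 h and 22.9% at 6 h. It called 39.2% for 18 h against 6 h and 8.66% between the lines. The test against 0.2 called 31.1% at 18 h and 13.3% for 18 h against 6 h. At 6 h a mean of at least 6 called 24.2%, the mean of all probe sets 17.8% and the bright centring 17%. For 18 h against 6 h no filter called 18.8% and line left out 20.2%. With 1 array left out, 31.9% to 48.6% of all genes were called at 18 h and 4.4% to 18.7% at 6 h. The share was 10.6% to 31.5% for 18 h against 6 h and 0% to 0.37% between the lines. The causes of these shifts were not tested. Most members are bright, where compression of changes was not tested, and COX6A2, COX6B2 and ATP5MF lie near the dim limit.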
